A study of Homo sapiens with 4 samples.

Results

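FZD2, FZD5, FZD6, LRP6, RNF43, GSK3B, TCF7L1, PTCH1 and SUFU are 9 genes of the Wnt and Hedgehog pathways, whose N6-methyladenosine (m6A) peaks were examined in the lung adenocarcinoma lines A549 and A549/DDP. The genes were taken by symbol from the peak lists of both lines, in which 7952 genes carried a peak, and all 9 were found. m6A is a modification of adenosine in messenger RNA. It was mapped by MeRIP-seq, which compares RNA fragments enriched with an m6A antibody with the same fragments before enrichment (input), and a peak marks bases of a transcript where reads of the enriched fragments exceed those of the input. A549 is a widely used human cell line, labelled cisplatin-sensitive, and A549/DDP is labelled cisplatin-resistant, DDP being an abbreviation of cisplatin. Both were grown in DMEM with fetal bovine serum, and neither how A549/DDP was made nor any drug exposure of the cultures is given in the sources used here. The study comprised 4 libraries, 1 immunoprecipitated and 1 input library per line, analysed as 1 peak list per line. With 1 library per group there was no replicate check and no test between the lines, and every comparison describes these libraries.

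Wnt proteins bind a Frizzled receptor together with the coreceptor LRP5 or LRP6, which restrains a destruction complex containing the kinase GSK3B, so that beta-catenin accumulates and acts with TCF factors in the nucleus. The ubiquitin ligases RNF43 and ZNRF3 remove Frizzled receptors from the cell surface, and R-spondins bound to LGR receptors counter them. In the Hedgehog pathway the ligand relieves the restraint that its receptor PTCH1 places on SMO, and SUFU holds back the GLI transcription factors. Both pathways act in the branching of the embryonic lung.

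The A549/DDP list held 32069 distinct peaks in 7026 genes and the A549 list 27319 in 6450 genes, and neither gave read counts, so the depth was unknown. The fold enrichment and the p of a peak are the authors' deposited values throughout, positions are on hg19, and intervals of shares are exact binomial (Clopper-Pearson) 95% intervals covering counting error only. Among 6 epithelial markers, the keratin genes KRT7, KRT8 and KRT18 had peaks in both lines, CDH1 in A549 alone, and EPCAM and KRT19 in neither. For lung epithelium, 0 of 4 markers had a peak. Of 11 markers of leukocytes, endothelium and fibroblasts, COL1A1 had a peak in both lines and CD14 in A549 alone. A peak is not a measure of expression. A gene without a peak may have been unmodified, too scarce to be called, or both, and these cannot be told apart here.

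A peak was listed in A549/DDP alone for FZD6, LRP6, TCF7L1, PTCH1 and SUFU, in A549 alone for FZD5 and RNF43, and in both lines for FZD2 and GSK3B. Thus 5 of 9 genes (55.6%, 21.2 to 86.3) were listed in A549/DDP alone, where the share over all 7952 genes with a peak was 18.9%. In A549 alone there were 2 of 9 (22.2%, 2.81 to 60.01), against 11.6% of all genes, and in both lines 2 of 9, against 69.5% of all genes. The 9 genes were chosen with their listings known, so these shares are no evidence about the pathways. Among the 13659 strongest peaks of each list by p, FZD6 was the 1 gene listed in A549/DDP alone, FZD2 the 1 listed in both, FZD5 and GSK3B were listed in A549 alone, and the other 5 genes had no peak. Rows equal in position, strand and exon blocks but listed on different transcripts were joined into 1 distinct peak, and peaks of a line that shared exonic bases were also merged into regions. The 9 genes had 25 distinct peaks in 12 regions in A549/DDP and 11 distinct peaks in 6 regions in A549. The median fold of these peaks was 7.04 in A549/DDP and 14.9 in A549, beside 3.81 and 3.72 over all distinct peaks of each list, but RNF43 alone supplied 6 of the 11 A549 peaks, all at 1 site, and without them the A549 median was 6.61 over 5 peaks. With each region counted once, at its peak of smallest p, the medians were 8.13 in A549/DDP and 11.6 in A549. Over all merged regions they were 4.19 and 4.13.

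**Figure D1:**
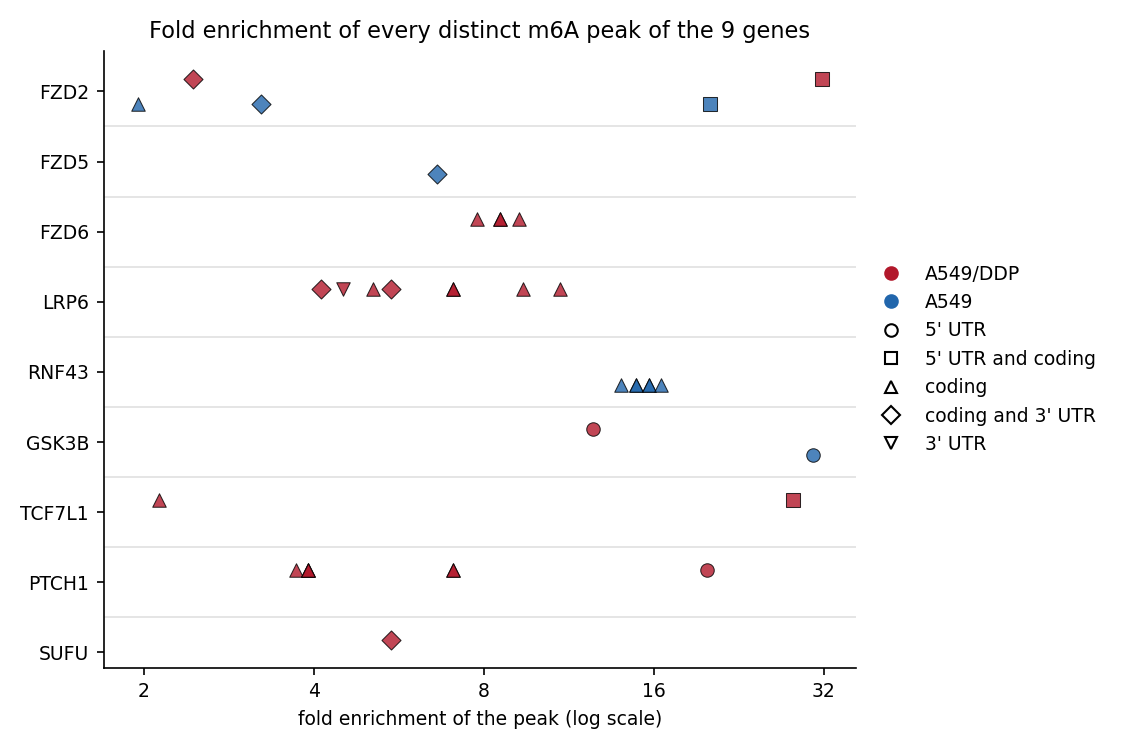
Fold enrichment (log scale) of every distinct m6A peak of the 9 genes, 1 row per gene, coloured by cell line and with the marker shape giving the transcript regions that the peak touches. FZD2 and GSK3B carry both colours, FZD5 and RNF43 the A549 colour alone, and the other 5 genes the A549/DDP colour alone.

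The peaks of FZD2 and GSK3B, the genes listed in both lines, largely coincided between them. All 3 A549/DDP peaks of these genes and 3 of their 4 A549 peaks had 1 or more exonic bases in common with a peak of the other line on their strand (overlapped it), and the exception was an FZD2 peak. Over all peaks, 67.2% of A549/DDP and 78% of A549 peaks overlapped the other list. Counted over all 9 genes, the overlapping peaks were 3 of 25 in A549/DDP (12.0%, 2.55 to 31.2) and 3 of 11 in A549 (27.3%, 6.02 to 61.0). As merged regions they were 3 of 12, against 63.9% of all A549/DDP regions, and 3 of 6, against 74.2% of all A549 regions. These lower shares are set by the choice of genes, since all 22 A549/DDP peaks and 7 of the 8 A549 peaks without overlap lay in genes listed in one line alone. No peak of the other line, under any gene symbol or on the opposite strand, overlapped a peak of the 7 genes listed in one line alone.

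FZD2, a Frizzled receptor, held the peak of smallest p among the 9 genes in each list, and it had peaks at both ends of its transcript in both lines. FZD2 lies on the plus strand of chromosome 17, and the outer ends of its peaks, 42634925 and 42636907, lie 1983 bases apart inclusive, which is the listed length of its transcript ENST00000315323.3. In A549/DDP the first peak covered bases 1 to 415 of this stretch, touched the 5′ UTR and the coding sequence, and had a fold of 31.7 (p of 6.31e-56). A fold as high was reached by 0.801% of the peaks of that list. In A549 the peak at this place covered bases 60 to 415 and had a fold of 20.1 (p of 1.58e-29), a fold reached by 3.08% of that list. Both peaks ended at the same base, and their starts lay 59 bases apart.

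At the 3′ end of FZD2 the A549/DDP peak covered bases 1806 to 1983, in the coding sequence and the 3′ UTR, with a fold of 2.44 (p of 3.98e-18). The A549 peak there covered bases 1746 to 1983 and had a fold of 3.22 (p of 1.58e-37). These 2 peaks both ended at base 1983, the last of the listed transcript length, beyond which no peak on it can extend. Their starts lay 60 bases apart. The start-side peak thus had the higher fold of the pair in both lines, whereas the smaller p belonged to the start-side peak in A549/DDP and to the stop-side peak in A549. A549 listed 1 further FZD2 peak, in the coding sequence at bases 1362 to 1598, with a fold of 1.95 (p of 1e-11). It had no counterpart in A549/DDP, where the nearest FZD2 peak began 207 bases further on. That fold lay low in its list, since 89.2% of A549 peaks had one as high.

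GSK3B, the kinase that phosphorylates beta-catenin for degradation, had 1 peak in each line, and both lay within the 5′ UTR. The gene lies on the minus strand of chromosome 3. The A549/DDP peak ran from 119812756 to 119813234 with a fold of 12.5 (p of 1.70e-08), and the A549 peak from 119812726 to 119813204 with a fold of 30.6 (p of 3.89e-09). Both covered 479 bases and shared 449 of them, the A549/DDP peak lying 30 bases nearer to the 5′ end of the transcript. The fold of the A549 peak was reached by 1.18% of its list and that of the A549/DDP peak by 9.21%. The lists do not state how libraries were scaled, so folds set side by side across the lines do not measure a change.

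**Figure D2:**
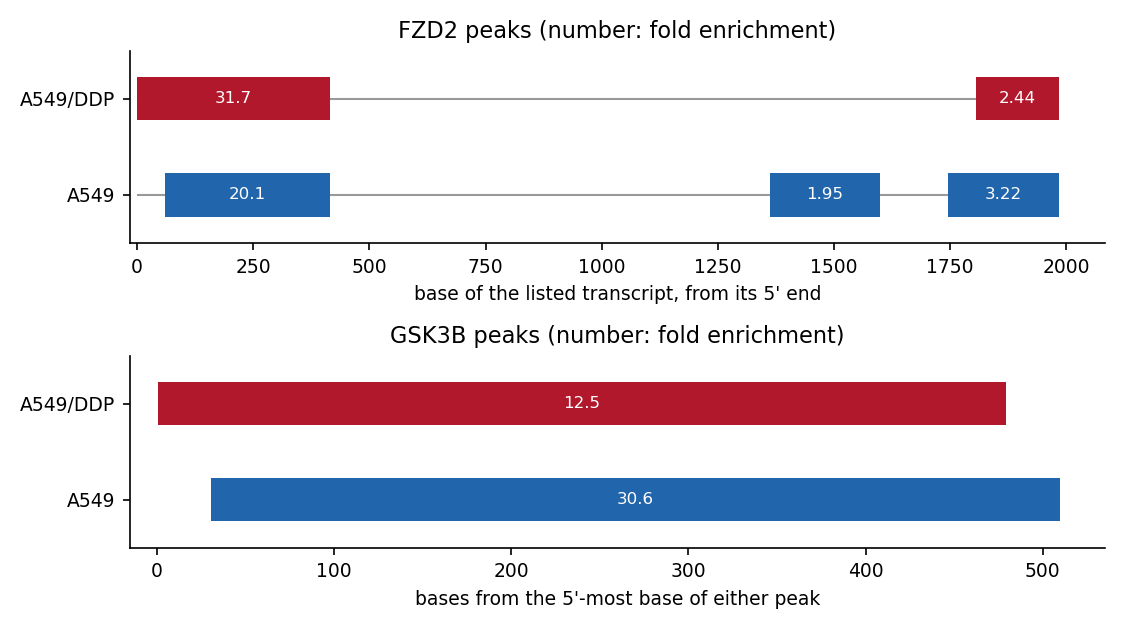
Peaks of FZD2 (upper panel, x axis in bases of the listed transcript from its 5′ end, grey line for its 1983 bases) and of GSK3B (lower panel, x axis in bases from the 5′-most base of either peak) in A549/DDP and A549, with the fold enrichment written in each bar. FZD2 has a peak at each end in both lines and a peak at bases 1362 to 1598 in A549, and the GSK3B peaks are offset by 30 bases.

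The other 2 Frizzled receptors of the set were each listed in one line. FZD5 had a single A549 peak touching the coding sequence and the 3′ UTR (chromosome 2, 208631592 to 208631861, minus strand), with a fold of 6.61 (p of 3.16e-11). FZD6, a receptor known for its part in planar cell polarity and in restraining beta-catenin signalling, had peaks in A549/DDP alone. They formed 1 region of 285 exonic bases in the coding sequence (chromosome 8, 104342052 to 104343611, plus strand), listed as 4 distinct peaks on 4 transcripts with folds of 7.77 to 9.22 and p of 2.00e-12 to 3.16e-11. Each of these peaks crossed an exon junction, with 227 to 242 bases before an intron of 1275 bases and 28 to 43 bases after it. FZD5 and FZD6 thus carried peaks at different places along their transcripts, each with a p smaller than the median of its list, 9.12e-08 in A549 and 5.13e-08 in A549/DDP.

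Among the 5 genes of A549/DDP alone, FZD6 was the one with a peak stronger than that median. LRP6, the Wnt coreceptor that relays the signal to the destruction complex, had the largest number of peaks, 8 distinct peaks in 3 regions on chromosome 12 (minus strand) over 4 transcripts. The region nearest to its 5′ end lay in the coding sequence at 12356220 to 12397529, where 2 of its 3 peaks joined exons across an intron of 40861 bases. Its folds were 5.08 to 10.9 and its p 2.69e-07 to 0.00129. The middle region, at 12318078 to 12318201 in the coding sequence, had 2 peaks with a fold of 7.04 (p of 1.55e-05). The 3′-most region, at 12273998 to 12274325, touched the coding sequence and the 3′ UTR and had folds of 4.11 to 5.47 (p of 1.32e-05 to 3.02e-05). The fold was thus highest at the 5′-most region, and the peaks lay at 3 separate places of the gene. The peaks with a fold of 5.08 and of 4.50 were listed on short transcripts of 562 and 593 bases.

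TCF7L1, the TCF family member best known as a repressor of Wnt target genes, had 2 peaks in A549/DDP on chromosome 2 (plus strand). The first, at 85360653 to 85360893 in the 5′ UTR and coding sequence, had a fold of 28.2 (p of 1.07e-07), and a fold as high was reached by 1.24% of the list. Its p, however, fell just short of the list's median. The second lay in the coding sequence across 3 exon blocks, 85531104 to 85532462, with a fold of 2.13 (p of 0.000309). Like FZD2, TCF7L1 therefore combined a start-side peak of high fold with a peak of low fold further along.

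PTCH1, the Hedgehog receptor and itself a Hedgehog target gene, had 7 distinct peaks in 2 regions in A549/DDP (chromosome 9, minus strand). A peak within the 5′ UTR, at 98270763 to 98270913, was listed on 1 transcript with a fold of 19.9 (p of 1.82e-05). The other region, in the coding sequence at 98209497 to 98209660, held 6 short peaks of 60 to 151 bases on 7 transcripts, with folds of 3.71 to 7.04 and p of 0.00129 to 0.00219. The coding site was among the weakest of the list, since at least 94.2% of its peaks had a p as small. SUFU, the inhibitor of GLI factors, had 1 peak of 61 bases touching its coding sequence and 3′ UTR (chromosome 10, 104389909 to 104389969, plus strand), with a fold of 5.47 (p of 0.00200). In the A549/DDP list 97.0% of peaks had a p as small as that of SUFU.

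RNF43, the ubiquitin ligase that takes Frizzled receptors off the cell surface, had peaks in A549 alone. Its 6 distinct peaks on 7 transcripts formed 1 region of 340 bases in the coding sequence (chromosome 17, 56435452 to 56435791, minus strand). Their folds of 14.0 to 16.5 were reached by at most 7.95% of the A549 list, but their p of 6.03e-05 to 0.000182 were weaker than its median. The 6 peaks are the same site seen on several isoforms and are not independent.

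Fold and p ranked several of these peaks very differently. In the A549 list 321 peaks had a fold of at least that of GSK3B (30.6), and 0 of them had a larger p. The same held for RNF43 at its fold of 16.5, with 0 of 1473 peaks, and in the A549/DDP list for the start-side peak of TCF7L1, with 0 of 399, and for the 5′ UTR peak of PTCH1, with 0 of 952. These 4 sites therefore had the weakest p listed among peaks of their fold or higher. The start-side peak of FZD2 differed: 193 of 257 A549/DDP peaks of at least its fold had a larger p, and 629 of 842 did in A549. Many values were also repeated: 16 of the 25 A549/DDP peaks and 8 of the 11 A549 peaks had the same fold and p as a peak of another gene. Isoform peaks at the same site, as in RNF43 and at the coding site of PTCH1, were counted separately here. The share of such repeated values over the whole lists is not given here, so these counts do not set these genes apart from others. The pair of values of RNF43 (fold 16.5) stood at 87 positions in 69 genes of the A549 list, and that of the PTCH1 5′ UTR peak at 50 positions in 35 genes of the A549/DDP list. Without read counts, how many reads lie behind such values is unknown.

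**Figure D3:**
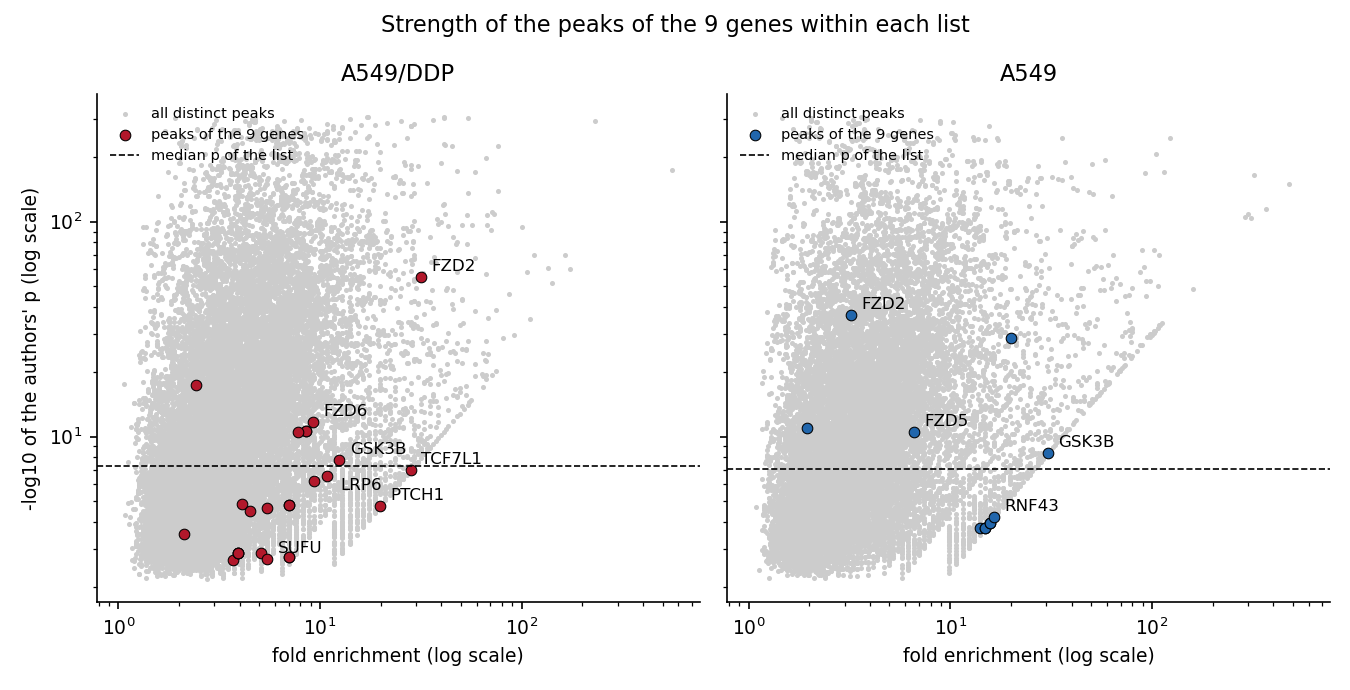
Fold enrichment (x, log scale) against −log10 of the authors' p (y, log scale) for all distinct peaks of each list (grey, without 239 A549/DDP and 169 A549 peaks whose p is listed as 0) and for the peaks of the 9 genes (colour, the smallest p of each gene named), with the median p of the list as a dashed line. GSK3B and RNF43 in A549 and TCF7L1 and PTCH1 in A549/DDP lie on the lower right edge of the cloud, and FZD2 lies far above it in both lists.

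By transcript region, 4 of 12 merged A549/DDP regions of the 9 genes touched a 5′ UTR (33.3%, 9.92 to 65.1), in FZD2, GSK3B, TCF7L1 and PTCH1, against 14.8% of all regions of that list. In A549 2 of 6 did (33.3%, 4.33 to 77.7), in FZD2 and GSK3B, against 9.74%. The 3′ UTR was touched by 3 of 12 regions in A549/DDP (25.0%, 5.49 to 57.2), in FZD2, LRP6 and SUFU, and by 2 of 6 in A549 (33.3%), in FZD2 and FZD5, against 59.2% and 65.1% of all regions. Coding sequence was touched by 10 of 12 and 5 of 6 regions (83.3% in each), against 58.7% and 56.6%. Over distinct peaks the 5′ UTR shares were 16.0% and 18.2%, against 13.6% and 8.42% of all peaks, the 3′ UTR shares 20.0% and 18.2%, against 50.4% and 56%, and the coding shares 88.0% and 90.9%, against 65.2% and 64.5%. The 5′ UTR share of A549/DDP thus lay above its background on counting regions and little above it on counting peaks. LRP6, PTCH1 and FZD6 hold several overlapping coding peaks, which lowers the share over peaks. The intervals, 9.92 to 65.1% over regions and 4.54 to 36.1% over peaks, include the background shares of 14.8% and 13.6%, so no difference is established.

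The 9 genes were set among 126 Wnt and Hedgehog genes grouped by role. A peak in either line was listed for 58 of them, 13 in A549/DDP alone (22.4%, 12.5 to 35.3), 5 in A549 alone (8.62%, 2.86 to 19.0) and 40 in both. Over all genes with a peak, 69.5% were listed in both. Without the 9 genes, 49 had a peak, 8 of them in A549/DDP alone (16.3%, 7.32 to 29.7) and 3 in A549 alone (6.12%, 1.28 to 16.9). Both shares lay below those of all genes (18.9% and 11.6%), which their intervals include. Among the 13659 strongest peaks of each list the order turned round, with 11 of the 126 genes listed in A549 alone, 5 in A549/DDP alone and 21 in both. Of all 4680 genes with a peak there, 18.9% were listed in A549 alone, 16.3% in A549/DDP alone and 64.7% in both, so the order turned round over all genes too. Of the 40 genes listed in both lines, 39 had peaks that overlapped between the lines, where 95.5% of all genes listed in both did. The exception was VANGL1, a planar polarity gene. The values that follow are those of the peak with the smallest p of each gene in each line.

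**Figure D4:**
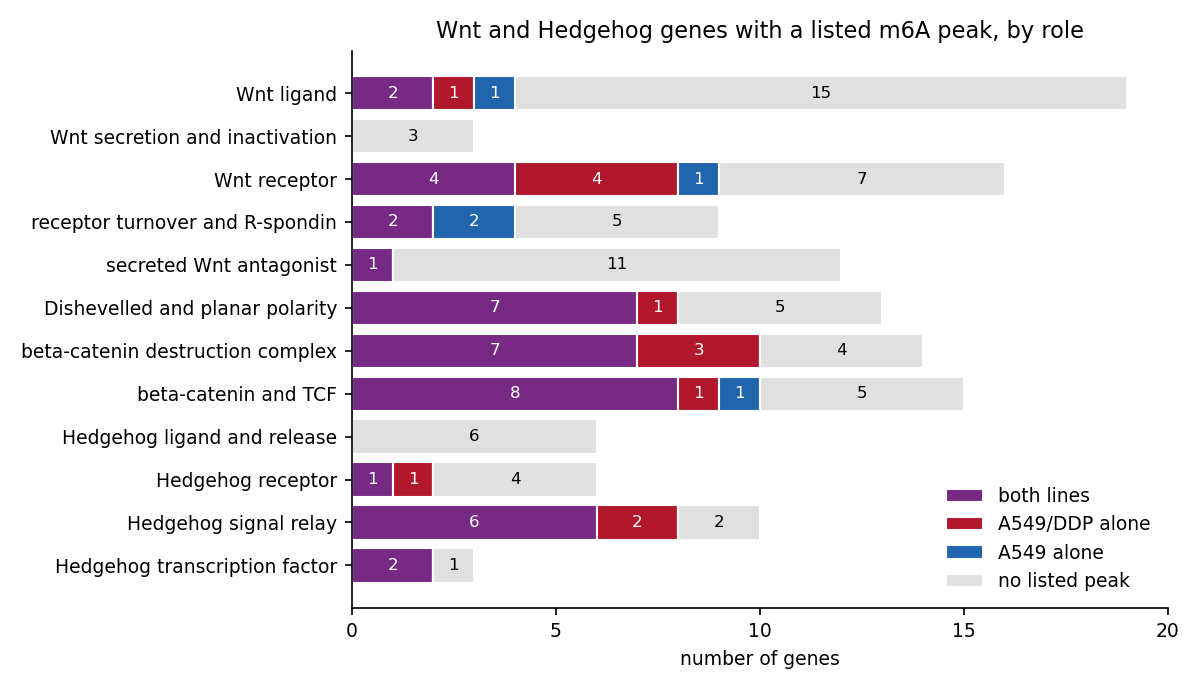
Number of Wnt and Hedgehog genes (x axis) in each role with a listed m6A peak in both lines, in A549/DDP alone, in A549 alone or in neither; all 9 genes described above are included. Among 9 Wnt receptor genes with a peak, 4 were listed in A549/DDP alone (interval 13.7 to 78.8%). Among 4 receptor turnover genes with a peak, 2 were listed in A549 alone (6.76 to 93.2%). Both intervals include the shares of all genes, 18.9% and 11.6%. FZD6, LRP6 and RNF43, chosen with their listings known, are among these genes.

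Of 19 Wnt ligand genes 4 had a peak. WNT7B, a ligand made by lung epithelium, had one in the 3′ UTR in A549/DDP (chromosome 22, 46317020 to 46318545, fold 12.3, p of 2.00e-50) and one reaching from the coding sequence into the 3′ UTR in A549 (46316930 to 46318784, fold 34.2, p of 1e-158). WNT3 had a weak coding peak in both lines (chromosome 17, folds 7.43 and 7.02, p of 0.000105 in A549/DDP and 0.00148 in A549). WNT5B, a ligand of beta-catenin-independent signalling, was listed in A549/DDP alone (3′ UTR, fold 5.86, p of 0.000186), and WNT6 in A549 alone (coding sequence and 3′ UTR, fold 12.7, p of 7.76e-10). PORCN and WLS, which act in Wnt secretion, and NOTUM, a secreted enzyme that inactivates Wnt, had no listed peak.

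Of 10 Frizzled genes, 3 had peaks in both lines, where 69.5% of all genes with a peak were, and FZD6 and FZD5 in one line each. FZD2, FZD5 and FZD6 were chosen with their listings known. FZD1 and FZD7 resembled FZD2 in being listed in both lines. Their single peaks lay in the 3′ UTR, which the stop-side peaks of FZD2 also touched, but neither gene had a start-side peak as FZD2 did. The FZD7 peak had folds of 6.16 in A549/DDP and 6.77 in A549 (p of 2.95e-08 and 6.03e-07). The FZD1 peak had folds of 8.80 and 7.02 (p of 5.50e-05 and 0.00117). FZD3, FZD4, FZD8, FZD9 and FZD10 had no listed peak. LRP5, the close relative of LRP6, had its peak over the coding sequence and 3′ UTR at the same position in both lines (chromosome 11, 68216383 to 68216713), with folds of 3.46 (p of 3.16e-24) and 3.48 (p of 7.94e-37), whereas LRP6 was listed in A549/DDP alone. The receptor tyrosine kinase genes ROR2 (coding sequence and 3′ UTR, fold 10.1, p of 1e-14) and PTK7 (3′ UTR, fold 2.49, p of 9.33e-05) were also listed in A549/DDP alone.

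Among genes of receptor turnover, ZNRF3, the partner of RNF43, had peaks in both lines, with a fold of 16.4 in the coding sequence in A549/DDP (p of 0.000158) and of 29.7 across the coding sequence and 3′ UTR in A549 (p of 6.92e-09). Those values of the A549/DDP peak stood at 109 positions of the list. LGR4, a receptor for R-spondins, was listed in A549 alone, as was RNF43, with a peak over the 5′ UTR and the coding sequence (chromosome 11, 27493815 to 27494262, fold 9.50, p of 4.07e-09). RSPO3, an R-spondin ligand, had peaks in both lines (fold 11.1, p of 2.51e-05 in A549/DDP and fold 2.29, p of 1.26e-57 in A549). In this role, which includes RNF43, chosen with its listing known, 4 genes had a peak, 0 of them in A549/DDP alone (interval 0 to 60.2%) and 2 in A549 alone (6.76 to 93.2%). Both intervals include the shares of all genes, 18.9% and 11.6%. Of 12 secreted Wnt antagonists and their receptors, KREMEN2 was the one with a peak, in the 3′ UTR in both lines (folds 10.7 and 7.85, p of 2.00e-34 and 0.000174).

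Of 13 Dishevelled and planar polarity genes 8 had a peak, 7 of them in both lines, where 69.5% of all genes with a peak were. CELSR1, a planar polarity cadherin, had a 3′ UTR peak with folds of 15.2 in A549/DDP and 13.0 in A549 (p of 2.00e-44 and 7.94e-61). NKD2, a Dishevelled antagonist, had folds of 16.4 and 26.8 (p of 6.31e-43 and 5.01e-15), and DVL3, a Dishevelled, 2.82 and 4.37 (p of 2.63e-09 and 3.98e-18), each across the coding sequence and 3′ UTR. DAAM1, a formin acting in planar polarity, was listed in A549/DDP alone (fold 3.0, p of 0.00269).

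Of 14 genes of the destruction complex and its regulators 10 had a peak, 7 in both lines, 3 in A549/DDP alone and 0 in A549 alone. Over all genes with a peak, 69.5% were listed in both. The intervals of the shares in one line alone, 6.67 to 65.2% and 0 to 30.8%, include those of all genes (18.9% and 11.6%). GSK3A, the paralog of GSK3B, had its strongest peak at the start side, as GSK3B did, but with coding sequence included (chromosome 19; in A549/DDP 42744166 to 42746745, fold 14.3, p of 1e-52, and in A549 42744226 to 42746745, fold 10.2, p of 1e-44). The casein kinase gene CSNK1D also had a start-side peak, with folds of 71.6 and 24.7 (p of 1e-111 and 6.31e-64). CSNK1E had folds of 12.6 and 10.4 at its 3′ end (p of 1e-22 and 3.98e-13). Listed in A549/DDP alone were APC2, a relative of the scaffold APC (fold 16.4, p of 1.15e-08), AMER1, which binds APC (fold 12.9, p of 0.00132, values found at 160 positions of the list), and BTRC, the ligase subunit that recognises phosphorylated beta-catenin (fold 2.68, p of 0.000501).

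Of 15 genes of beta-catenin, TCF factors and their cofactors 10 had a peak, 8 in both lines, where 69.5% of all genes with a peak were. CTNNB1, which encodes beta-catenin, had a 3′ UTR peak in both (chromosome 3, 41281215 to 41281545 in A549/DDP, fold 5.61, p of 1e-111, and 41281245 to 41281545 in A549, fold 3.92, p of 3.98e-25). BCL9L, a beta-catenin coactivator, had folds of 8.75 and 11.1 (p of 1.26e-45 and 6.31e-85), and TLE5 (AES in the lists), a Groucho family gene, had 558 and 480 at its 5′ end (p of 1e-174 and 1e-149). TCF7L1 was the TCF gene listed in one line, TCF7 and TCF7L2 having peaks in both and LEF1 none. TLE2, a Groucho corepressor gene, was listed in A549 alone (coding sequence, fold 6.20, p of 0.00302).

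Of 25 Hedgehog genes 12 had a peak, 9 of them in both lines, where 69.5% of all genes with a peak were. Listed in A549/DDP alone were 3 (25.0%, 5.49 to 57.2) and in A549 alone 0 (interval 0 to 26.5%), and both intervals include the shares of all genes, 18.9% and 11.6%. The 3 were PTCH1, SUFU and STK36, a kinase related to fly Fused, with a 3′ UTR peak (fold 3.03, p of 1.91e-09). PTCH1 and SUFU were chosen with their listings known, so the 25.0% is partly set by that choice. SMO, the signalling partner restrained by PTCH1, had a peak at its 3′ end in both lines, with folds of 5.44 and 6.29 (p of 3.16e-17 and 3.16e-18). GLI1, the GLI factor that is itself a target of the pathway, had coding peaks with folds of 5.23 and 12.4 (p of 1.58e-12 and 1.62e-06), and GLI2 had 3′ UTR peaks with folds of 4.23 and 28.1 (p of 1e-11 and 1.07e-08). The ligand genes SHH, IHH and DHH, with HHAT, DISP1 and SCUBE2, had no listed peak, nor had HHIP, BOC, CDON and GAS1. Among relay genes, SPOP, a ubiquitin ligase adaptor, had 3′ UTR peaks (folds 5.08 and 3.64, p of 1.26e-61 and 1.26e-22) and GPR161, a ciliary receptor that opposes the pathway, had peaks across the coding sequence and 3′ UTR (folds 16.7 and 9.09, p of 5.01e-33 and 1.58e-20). PRKACA, the catalytic subunit of protein kinase A, had its strongest peak at the start side in A549/DDP (5′ UTR and coding, fold 64.5, p of 7.94e-20). Its 1 peak in A549 lay in the 3′ UTR (fold 2.48, p of 3.55e-09). That A549 peak overlapped an A549/DDP peak, so the 3′ UTR site was listed in both lines.

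Outside the 9 genes, 38 genes of these roles were listed in both lines, and 26 of them had a peak stronger than the median p in A549/DDP and 27 in A549. The counts were 3 of the 8 listed in A549/DDP alone and 2 of the 3 listed in A549 alone, the latter too few to compare. Here the strongest peak of a gene is set against a median over peaks, which favours genes with many peaks. The share of all genes passing that median is not given here. Over the whole lists, the median of a gene's smallest p was 4.07e-05 for genes of A549/DDP alone and 6.68e-05 for genes of A549 alone, and 3.16e-15 and 1.26e-12 for genes in both. FZD6, with 2.00e-12, and FZD5, with 3.16e-11, were stronger than the median of the genes listed in their line alone by this measure, as were LRP6, TCF7L1 and PTCH1, and RNF43 narrowly. SUFU was weaker.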

How the data were processed

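MeRIP-seq peak lists of A549/DDP and A549 were analysed. The submitters' processing notes name HISAT2 and the build hg19. For the peak caller, its threshold, library scaling and annotation release, nothing is stated in the sources used here. Per the file headers, rows hold 1 peak each with its exon blocks, transcript, gene, fold enrichment, p-value and transcript region. The fold enrichment is a linear ratio deposited by the authors, and was taken as immunoprecipitated over input. The p-value is likewise deposited by the authors, had a maximum of 0.00676 (A549/DDP) and 0.00646 (A549), and may or may not be adjusted. Both libraries of a line were assumed to lie behind its list.

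Of 33465 and 28601 rows, those of equal position, strand and blocks were joined into distinct peaks, with the smallest p and its fold, and peaks sharing exonic bases were merged into regions (Python 3.11.15, pandas 2.3.3, scipy 1.17.1). Peaks were called shared at 1 exonic base on the same strand, and this code was checked on simulated data. Of 7957 symbols 7829 matched a RefSeq table of GRCh38.p14, used for names only. Positions count from 1. No sequence is shown, as no genome of the files' build was used. Alternatives are given in the closing section. One gene of the lists is not reported here. The members, gene lists and alternatives were chosen with earlier results of these data known. Named were the 9 genes and, from each role, every gene listed in one line alone and up to 3 of those in both by smallest p. VANGL1, TCF7 and TCF7L2 fall outside this rule and were chosen with their values in view.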

Additional observations from a re-analysis of the deposited data

How the results depend on the processing

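The 17 counts and shares were recomputed under 80 alternatives in all, of which 67 stayed within 1.5 times the count or within the interval of the share. The intervals rest on 25 or 11 peaks and are wide, so this is a loose criterion. For example, the overlapping share of A549/DDP passed it on going from 12.0% of peaks to 25.0% of merged regions. The alternatives were a minimum fold of 2 or of 5, lists cut to the 13659 peaks of smallest p, overlap of at least 50% of one or both peaks or by span, merged regions, and rows of peak and transcript. With the lists so cut, the 9 genes had 6 peaks in A549/DDP and 5 in A549. LRP6, TCF7L1, PTCH1, SUFU and RNF43 then had no peak in either list and GSK3B had one in A549 alone, so that 1 gene (FZD6) was listed in A549/DDP alone and 1 (FZD2) in both, and 1 gene had overlapping peaks. Of the A549/DDP peaks 33.3% then overlapped and 100% touched coding sequence, over 6 peaks. Of the 126 genes, 21 were then listed in both lines, 5 in A549/DDP alone and 11 in A549 alone. At a fold of at least 5, 9 of them were listed in A549 alone. These settings keep fewer peaks by construction, and no other cause was tested. Merging gave 12 and 6 regions. No paired analysis was possible because each line had 1 library of each kind. Depth is unknown, so a weak peak missing from one list may reflect fewer reads there, which was not tested. GSK3A and GSK3B, and the Frizzled genes, are paralogs, and how reads shared between copies were assigned is not given in the sources used here.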
